A study of Mus musculus with 8 samples.

Results

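The mouse expression array used here carried 4450 probes, of 56605 that were not controls, whose target is named by chromosomal coordinates in place of an mRNA or noncoding RNA accession. These probes were taken by that name alone, and they target 4062 distinct regions. The class is meant for intergenic transcripts, but overlap of the regions with genes was not tested. They were measured in photoreceptor cells isolated at postnatal day 8, on 4 arrays labelled Lpcat1 HZ (heterozygous) and 4 arrays labelled Lpcat1 KO. The strain is given as C57BL/6 for all 8 samples. The KO is a global deletion of Lpcat1, an acyltransferase that makes phosphatidylcholine from its lyso form. Both groups came from a line of C57BL6/N origin that was crossed to C57BL6/J to remove homozygosity for rd8, a Crb1 mutation. The cells were picked from dissociated retina with an antibody against CD73, a surface protein of photoreceptors, so that other cells carried through the isolation also contribute RNA. No heterozygous effect can be separated, since wild-type cells were not part of the comparison, and the labels do not say whether animals were pooled or were littermates. If samples were not from separate animals, the p-values measure technical spread alone.

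Much of the mammalian genome outside protein-coding genes is transcribed. Long intergenic noncoding RNAs are often spliced and polyadenylated like mRNAs, but most are present at lower levels and in fewer cell types, and some lie close to or antisense to a coding gene. Arrays of this design test such regions with probes for the forward or the reverse strand, so that transcription can be assigned to a strand even where no gene model exists.

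The regions were 62 to 538251 bases long, with a median of 10251, and lay on 20 chromosomes. Most regions, 3746, had a single probe, and 316 had 2 to 6. Many names overlap: merged on either strand, the regions formed 2150 separate loci, of which 1023 held more than 1 region and the most crowded held 15. The name of a region ends in F or R, read here as forward and reverse strand, for 2227 and 2222 probes, and 1 name has no such ending. The scanner files name mm9 as the build of the array design, and the coordinates below are those in the probe names, which were not checked against a genome. Probe sequences and the genes next to each region were not analysed here.

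The 8 arrays lay on 1 slide, the KO arrays in one row and the HZ arrays in the other, and the effects of row and genotype cannot be told apart. Lpcat1 itself, measured by a single probe, did not separate the labels. On the log2 scale it read -0.81, -0.95, -1.02 and -1.17 for HZ and -0.97, -1.16, -1.11 and -0.85 for KO (limma adjusted p = 0.931). Whether this probe lies in the deleted part of the gene was not tested. In what follows, HZ and KO arrays are therefore the arrays so labelled, and each direction rests on the labels. All 20 rod markers were tested, and Nt5e, which encodes CD73, lay between 4.05 and 4.39 on the 8 arrays, well above the 75th percentile of each array, which is set to 0 on this scale. Retinal pigment epithelium (RPE) markers were lower on the KO arrays. All 21 tested of 25 had negative differences, with a median of -1.67, and the mean centred level of the list ran from 0.088 to 1.41 on HZ and from -1.54 to -0.17 on KO arrays. Microglia markers were higher on the KO arrays in 13 of 14 tested (median 0.75, centred level -0.63 to 0.38 on HZ and 0.025 to 0.69 on KO), as were all 3 tested red blood cell markers (median 1.58, -1.23 to 0.26 on HZ and -0.69 to 2.16 on KO). Xist was at 0.93 or above on HZ replicates 1, 2 and 3 and KO replicates 2 and 3, and at -6.50 or below on HZ replicate 4 and KO replicates 1 and 4, where the Y-linked genes were high. Xist was thus high on 3 HZ and 2 KO arrays, and the labels give no sex. HZ replicate 4 also had 458 spots marked as non-uniform, 59 of them on probes named by coordinates, against 2 to 25 spots on the other arrays.

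Signal from the probes for these regions was common. Whether it came from the named coordinates was not tested. A probe was counted as detected on an array where the scanner software marked its signal as well above background. By this mark, 51.1%, 51.3%, 54.6% and 57.7% of the 4450 probes were detected on the HZ arrays and 50.3%, 49.7%, 54.8% and 52.4% on the KO arrays. The groups overlapped, with means of 53.7% ± 3.10 and 51.8% ± 2.30 (SD, n = 4 each). Probes for mRNAs (NM accessions) were detected more often, and probes for annotated noncoding RNAs (NR accessions) less often. The share for coordinate-named probes minus that for mRNAs averaged -17.5 percentage points (SD 1.67), and minus that for annotated noncoding RNAs 11.8 points (SD 0.761). Both differences had the same direction on 8 of 8 arrays (two-sided exact sign-flip permutation test, p = 0.00781 for each, also after adjustment for 2 comparisons, the smallest value that 8 arrays can give). The arrays share a probe set, so these tests speak for the stability of the shares over arrays and not for other probe designs.

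**Figure D1:**
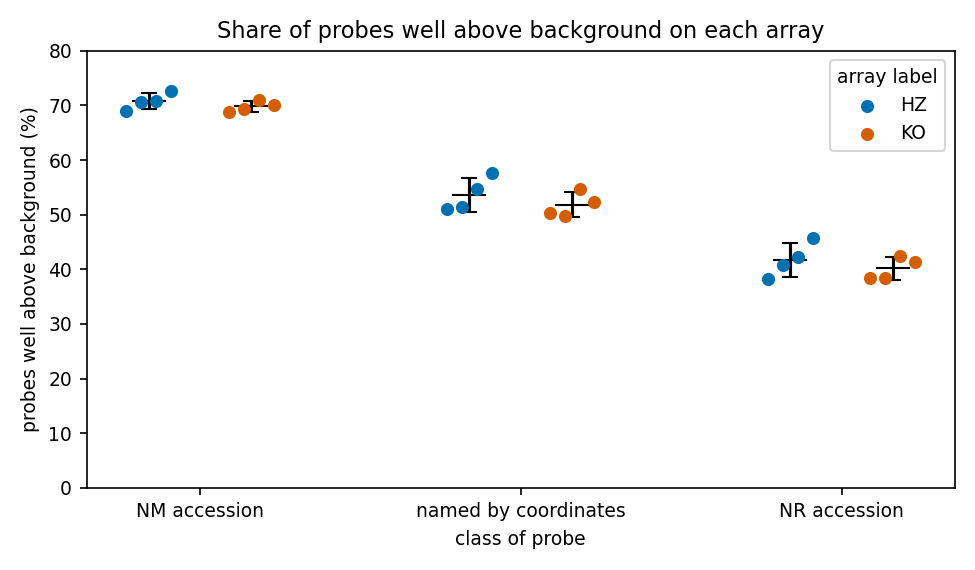
Percentage of probes well above background on each of the 8 arrays, for probes named by an NM accession, by coordinates and by an NR accession. Points are arrays, HZ in blue and KO in orange, and bars are the mean and SD of 4 arrays. Coordinate-named probes lay between 49.7% and 57.7%, below all NM values and above all NR values.

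Detection was mostly all or none. Of the 4450 probes, 1842 (41.4%) were detected on all 8 arrays and 1294 (29.1%) on none, which leaves 1314 that were detected on 1 to 7 arrays. For mRNA probes, the corresponding shares were 64.0% and 19.0%, and for annotated noncoding RNA probes 31.9% and 41.1%. Detection did not depend on strand by more than a few points: 40.5% of forward and 42.3% of reverse probes were detected on all 8 arrays. Regions shorter than 1 kb were detected least, with 44.8% of 967 probes passing the filter below, against 52.0% to 57.2% in the longer classes. Between chromosomes the share that passed ran from 46.1% of 343 probes on chromosome 1 to 63.1% of 249 on chromosome 17.

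The level and the difference between genotypes were examined for the 2330 members that were detected on at least 4 of the 8 arrays, with 3 or more values left per group. They passed the same filter as all 34303 tested probes. Their levels were low. The mean normalized log2 signal had a median of -3.40, with quartiles at -4.56 and -1.64, whereas the median was -0.37 for tested mRNA probes and -2.64 for tested annotated noncoding RNA probes. When all tested probes were divided by level into 4 classes of equal size, the lowest class held 1057 of the members (45.4%) and the highest 152 (6.52%). Brightness also depends on the probe, so these levels describe signals and do not rank transcripts.

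**Figure D2:**
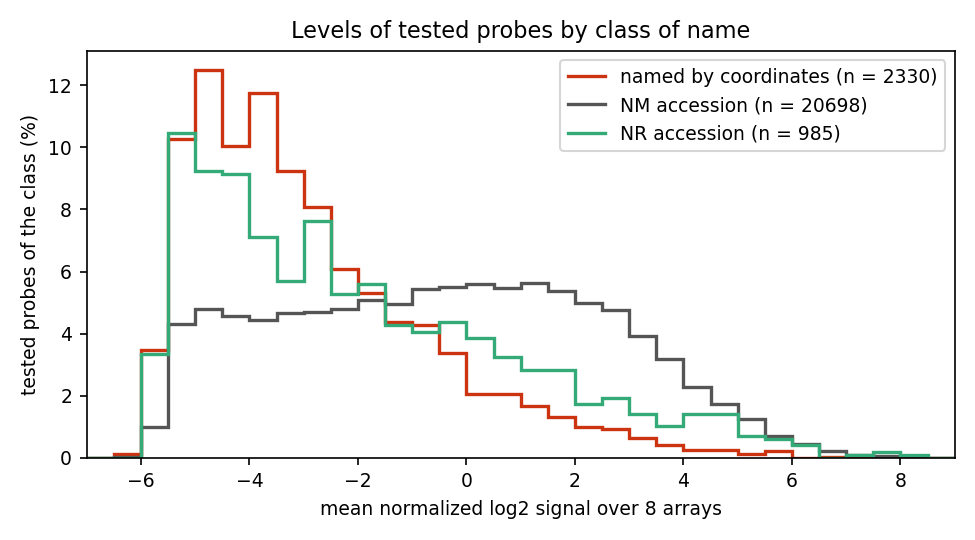
Distribution of the mean normalized log2 signal over 8 arrays (0 is the 75th percentile of an array) for tested probes named by coordinates, by NM and by NR accessions, as a percentage of each class in bins of 0.5. The coordinate-named probes peak on the left, in the bin from -5 to -4.5, below their median of -3.40, with a thin tail that reaches 7.45.

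None of the 10 brightest members was called between genotypes. The probe for chr17:17481706-17482457 (reverse, 752 bases) gave 7.41, 7.51, 7.32 and 7.49 on HZ and 7.48, 7.48, 7.41 and 7.52 on KO arrays. Its groups overlapped and the difference was 0.040 (SE 0.079, limma adjusted p = 0.891). The next was chr14:78924115-78938125 (forward), at 6.27 to 6.54 on 6 arrays, with 7.60 on HZ replicate 4 and 6.99 on KO replicate 4. Brightness ranks 3 to 6 fell to the reverse strand of chr14:65205076-65219432, chr7:108209996-108216032, chr19:19005109-19008657 and chr11:22681800-22707775. Ranks 7 to 10 were the forward strand of chr17:39983902-39985688, chr8:74820025-74833350 and chr6:116092274-116144199 and the reverse strand of chr19:5798135-5800557. In 9 of these 10 the arrays of the labels overlapped, and their differences ran from -0.22 to 0.20.

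The exception among the 10 was chr6:116092274-116144199, forward. It measured 4.93, 5.15 and 4.92 on HZ replicates 1 to 3 and 5.30, 5.28, 5.38 and 5.43 on the KO arrays, while the spot on HZ replicate 4 was an outlier and was left out. The groups did not overlap, but the difference of 0.34 (SE 0.10, adjusted p = 0.480) stayed below 1.5-fold. Within it lies chr6:116123643-116124550 on the same strand, whose 3 probes had differences of 0.088, 0.11 and 0.16 with overlapping groups. The reverse strand of the larger region read -0.86 to -0.62 on the 8 arrays and differed by 0.041.

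Precision within an array could be seen directly for 5 members that were each printed as 10 spots. The SD between the spots of a probe lay between 0.042 and 0.53 on the log2 scale. For chr17:39983902-39985688 it was 0.048 to 0.15, below the SD between arrays of 0.23 among HZ and 0.29 among KO arrays. For each of the others, the highest SD between spots exceeded the SD between arrays of at least 1 label. At chr2:167085700-167117795 (reverse) it reached 0.53, against 0.22 among HZ and 0.24 among KO arrays. Over all 2330 tested members, the median SD between arrays of 1 label was 0.30, against 0.17 for mRNA probes. In the lowest of the 4 level classes these medians were 0.43 for members and 0.42 for all other probes, and in the highest class 0.18 and 0.13. The spread of the members thus fell with rising level, and within a class it lay slightly above that of the other probes.

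Strand could be examined at 832 regions that carried probes for both strands at identical coordinates. Both strands were detected on all 8 arrays at 212 of them and on none at 69. At 140 regions, 1 strand was detected on all 8 arrays and the other on none, the forward strand at 56 and the reverse strand at 84. The brightest of these 140 was chr1:193875525-193978800. Its reverse probe stood at 4.17 ± 0.13 on HZ and 4.46 ± 0.16 on KO arrays (SD, n = 4 each), a difference of 0.28 (SE 0.11, adjusted p = 0.585), and its forward probe at -6.51 ± 0.56 and -7.48 ± 0.39 was never well above background.

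The same pattern held at chr11:35805295-35817263, chr7:111526943-111545093 and chr15:85412264-85549139, with signal from the forward strand, and at chr13:28477490-28985604, with signal from the reverse strand. The detected probes of these 4 regions averaged 1.87 to 2.64 and the undetected ones -7.91 to -6.39. None of the 5 detected probes passed a threshold between genotypes (adjusted p of 0.585 to 0.928), and the difference at chr1:193875525-193978800 was the largest of them.

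Between genotypes, the members as a group moved little. Of the 2330 tested members, 1462 were lower (62.7%, against 49.5% of all tested probes) and 868 higher. The median difference of the members, KO minus HZ, was -0.064 on the log2 scale, against 0.0023 over all tested probes, 0.036 over mRNA probes and -0.025 over annotated noncoding RNA probes. The sign of the median changed with the scaling and with a single array, as it was 0.00081 after quantile normalization and 0.013 without HZ replicate 4, on which the members' median level was -3.01, against -3.51 to -3.29 on the other HZ and -3.50 to -3.38 on the KO arrays. It also followed level. From the lowest to the highest level class, the members' medians were -0.12, -0.055, -0.014 and 0.022, and those of all other tested probes were -0.10, -0.024, 0.020 and 0.059. On all 20 chromosomes the median of the members was below 0, from -0.11 on chromosome 8 to -0.017 on chromosome 6. These medians share the same arrays and scaling, so they are not independent of each other. Most differences were small: 70.6% of the members were within 1.2-fold, as were 77.2% of all tested probes. In RNA from an isolated cell population, fewer cells of a type and less RNA per cell cannot be told apart.

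**Figure D3:**
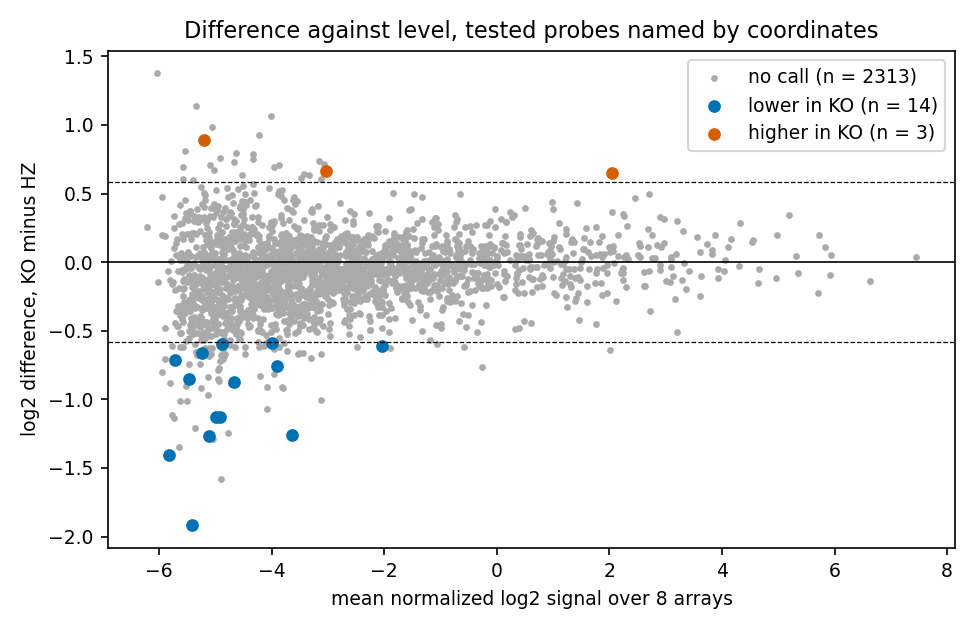
Log2 difference (KO minus HZ) against the mean normalized log2 signal for the 2330 tested members. Grey points are members without a call, blue points the 14 called lower and orange points the 3 called higher, and dashed lines mark 1.5-fold. The spread widens toward low levels, where 13 of the 14 lower calls lie below -3.

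No member passed the stricter thresholds of the study's methods, 1.2-fold at an adjusted p of 0.05. By limma the count was 0 of 2330, as it was for all tested probes (0%), and it was also 0 by the methods' t-test and under every other setting examined. The lowest adjusted p of a member was 0.289. At an unadjusted p under 0.05 there were 136 members (5.84%), a smaller share than the 8.17% of all tested probes. At the looser thresholds, 1.5-fold with an adjusted p of 0.5, at which a large part of the calls can be false, 14 members were lower on the KO arrays (0.601%, against 0.813% of all tested probes) and 3 were higher (0.129% against 0.227%). The arrays of the labels did not overlap for 39 members that were lower (1.67%, against 2.14% of all tested probes) and for 38 that were higher (1.63% against 4.19%). In this fit, each of these shares was below that of the whole array, which did not hold in every setting.

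The number of calls depended strongly on single arrays. It was 0 without HZ replicate 1, HZ replicate 3, KO replicate 3 or KO replicate 4, 9 without HZ replicate 4, 6 without KO replicate 1, 2 without KO replicate 2, and 139 without HZ replicate 2. Of these 139, 128 were lower, a larger share of the members (5.71%) than of all tested probes (3.77%), and 11 were higher (0.491% against 1.04%). Lower calls were also the more frequent among members with the mean level of 4 Y-linked genes as a covariate, a fit chosen after seeing the data (3.09% against 2.36%). With the replicate number as a block, 61 members were lower (2.62%, against 2.66% of all tested probes) and 12 higher (0.515% against 0.74%). The split of 14 lower and 3 higher became 4 and 2 after quantile normalization or normexp background correction. The 4 lower calls were 0.172% of the members, against 0.519% of all tested probes after quantile normalization and 0.88% with normexp. With the percentile taken over probes detected on all arrays, the split was 13 and 1 (lower calls 0.558% against 0.819%). Most named differences below are therefore given with the values on each array or with their range by label.

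**Figure D4:**
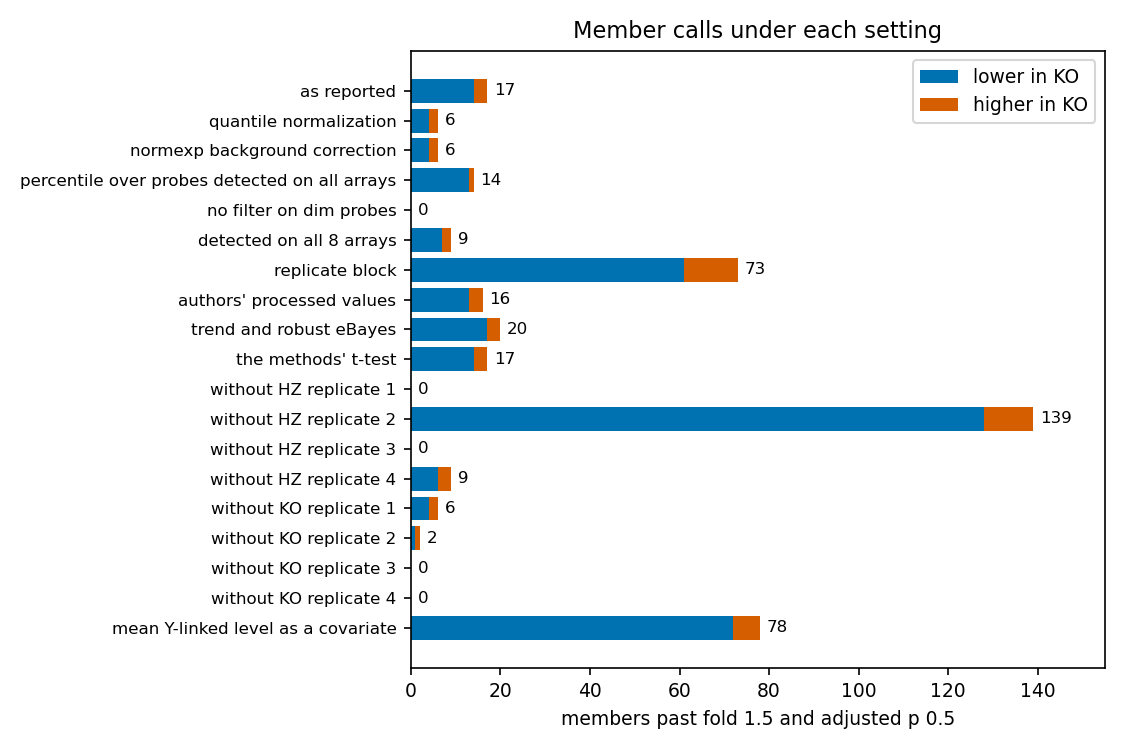
Number of members past the looser thresholds (1.5-fold, adjusted p of 0.5) under each setting, with lower calls in blue and higher calls in orange and the total printed at the end of each bar. As reported, 17 members passed, and the count ran from 0 to 139 when single arrays were left out.

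The 10 largest called differences with no overlap between the labels were all lower on KO arrays, and they are numbered here as regions 1 to 10. Most were dim: 3 of the 14 lower calls were detected on 0 KO arrays and 4 on 1 KO array. Those 3, regions 1, 2 and 7, passed the filter on dim probes only through the HZ arrays, so a lower KO signal was built into their selection and their p is no independent evidence of it. The HZ arrays alone also met the filter for regions 3 and 10 and the called probe of chr2:102082091-102082751, detected on 1 KO array each. The same holds for regions 5 and 6, detected on 2 KO arrays each, and for chr11:87841800-87858725, detected on 3 KO arrays. Region 9 reached the filter with 3 HZ arrays and 1 KO array. The p of all these calls carries this limit in part. Regions 1 and 3 overlap and lie on the forward strand of chromosome 9, so they are not independent of each other. Region 1 is chr9:78107225-78118850 (11626 bases). It measured -3.75, -5.26, -4.30 and -4.50 on the HZ arrays and -5.88, -5.90, -5.84 and -7.85 on the KO arrays. As its probe was not well above background on any KO array, the change is given as a bound, at least 2.26-fold lower on the arrays labelled KO. The fitted difference, which uses those KO signals, was -1.92 (SE 0.51, limma adjusted p = 0.434). It ran from -2.09 to -0.56 over the settings examined, and the smallest value, with normexp background correction, is a smaller change than the bound.

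Region 3, chr9:78104935-78116974 (12040 bases), shares most of that interval. Its signal was -3.93, -5.29, -4.35 and -4.33 on HZ and -5.68, -6.04, -5.56 and -5.67 on KO arrays, a difference of -1.26 (SE 0.27, adjusted p = 0.362). Both probes thus ordered the arrays alike at the top, with HZ replicate 1 highest and HZ replicate 2 lowest among the HZ arrays. A further probe named for region 1 was detected on 0 arrays and gave no test. The RPE marker list was also highest on HZ replicate 1 (1.41) and lowest among HZ on replicate 2 (0.088), and the part of RPE RNA in these or the other lower calls was not tested.

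Region 2, chr9:41488229-41545481, lies elsewhere on chromosome 9, on the reverse strand. It measured -5.27, -4.73 and -5.03 on HZ replicates 1 to 3, with the spot of HZ replicate 4 left out as an outlier, and -6.67, -5.72, -6.66 and -6.62 on KO arrays. The detection mark of that left-out spot was still counted. Without it, region 2 would not have met the filter of 4 arrays. With no KO array well above background, the bound is at least 1.55-fold lower. The fitted difference, against KO signals not above background, was -1.41 (SE 0.27, adjusted p = 0.334) and ran from -2.16 to -0.29 over the settings, again with a normexp value smaller than the bound. KO replicate 2 stood nearest to the HZ arrays.

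Region 4, chr17:17628846-17641021 on the reverse strand, was detected on all 8 arrays, so that its difference is measured on both sides. Its signal was -3.16, -2.87, -3.11 and -2.92 on HZ and -3.62, -4.47, -4.95 and -4.06 on KO arrays. The difference was -1.26 (SE 0.26, adjusted p = 0.353), and in the settings examined it ran from -1.48 to -0.68. Regions 3, 5, 6 and 8 ran from -1.54 to -0.40, -1.27 to -0.34, -1.09 to -0.13 and -0.89 to -0.45, and regions 7, 9 and 10 from -1.01 to -0.12, -0.86 to -0.25 and -0.77 to -0.22. Region 8, chr5:13067925-13096000 on the reverse strand, was also detected on every array. It measured -3.57, -3.78, -3.44 and -3.33 on HZ and -4.03, -4.62, -3.86 and -4.61 on KO arrays (difference -0.75, SE 0.20, adjusted p = 0.434). The closest arrays of the labels were 0.086 apart at region 8, against 0.46 at region 4.

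Region 5, chr12:76771424-76772158 on the forward strand, is a short name of 735 bases inside a crowded locus. It measured -3.84, -4.77, -4.34 and -4.49 on HZ and -5.07, -5.74, -6.00 and -5.15 on KO arrays (difference -1.13, SE 0.27, adjusted p = 0.382). Within the 33426 bases of chr12:76744947-76778372, which contain it, the other 3 tested probes lay on the reverse strand, and none was called (differences -0.25, -0.12 and 0.076, overlapping groups). A pair of other forward probes, for chr12:76744947-76778372 and chr12:76776232-76776905, were each detected on 2 HZ and 0 KO arrays and were not tested. Their means were -5.24 and -5.99 on HZ and -5.91 and -6.96 on KO arrays.

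Region 6, chr2:176296720-176297353 (634 bases, forward), measured -4.42, -4.45, -4.10 and -3.96 on HZ and -5.66, -4.89, -4.46 and -5.44 on KO arrays. The difference was -0.88 (SE 0.26, adjusted p = 0.479), and HZ replicate 2 and KO replicate 3 were 0.0043 apart. The probes of the surrounding chr2:176264400-176302925, detected on all 8 arrays, differed by 0.093 on the same strand and by -0.080 on the reverse strand. Neither probe of the longer region was called.

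Regions 7, 9 and 10 were near the limit of detection. Region 7, chr16:30200995-30205965 (reverse), measured -5.33, -5.17, -4.83 and -4.84 on HZ and -5.62, -5.41, -6.34 and -6.20 on KO arrays, none of them well above background, and was at least 1.51-fold lower with the reported normalization, against a fitted difference of -0.12 with normexp background correction. Region 9, chrX:146897133-146900197 (reverse), ran from -5.80 to -4.85 on HZ and from -6.26 to -5.86 on KO arrays (difference -0.71, SE 0.20, adjusted p = 0.446). Region 10, chr5:149751979-149808240 (reverse), ran from -5.18 to -4.50 and from -5.72 to -5.25 (difference -0.67, SE 0.17, adjusted p = 0.429). The closest arrays of the labels were 0.065 apart at region 9 and 0.069 at region 10. The forward probe at the coordinates of region 10 was detected on all 8 arrays and differed by 0.023. Within region 10 on its own strand, the probes for chr5:149765314-149771786 and chr5:149801336-149806799, also detected on all arrays, differed by 0.051 and -0.033. A pair of tested probes there for chr5:149775338-149781472, dimmer and detected on 7 and 5 arrays, differed by -0.32 and -0.43. All 4 had overlapping groups and none was called. Around region 9, a pair of reverse probes for chrX:146827709-146913398 differed by -0.041 and by 0.23, the second with separate groups and higher on KO (adjusted p = 0.556).

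**Figure D5:**
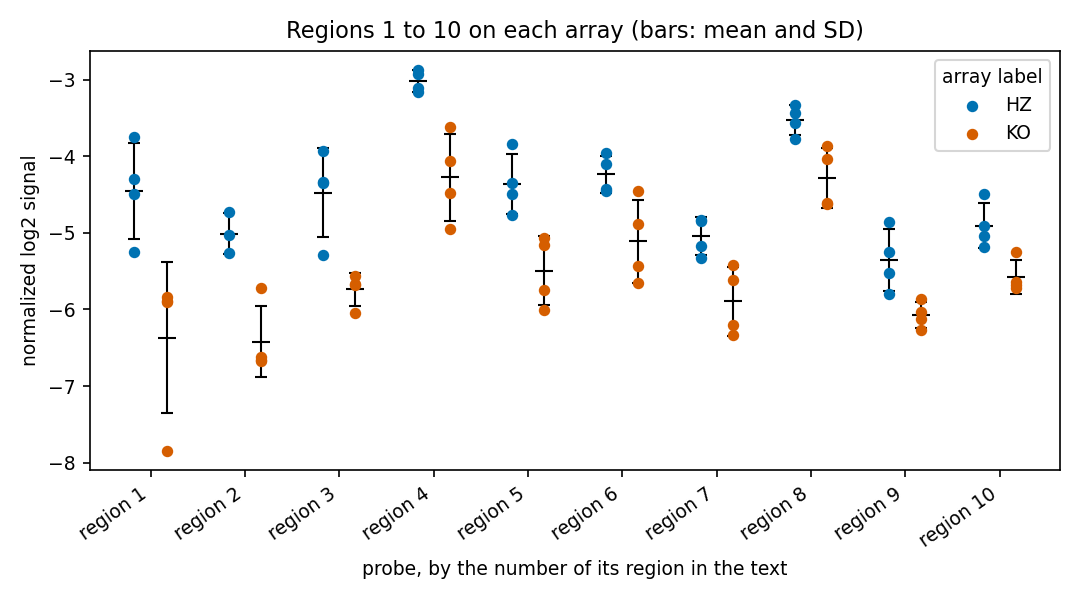
Normalized log2 signal of the probes for regions 1 to 10 on each array, HZ in blue and KO in orange, with the mean and SD of each label as bars (3 HZ values for region 2). The labels are separate in each region, with the closest arrays 0.58 apart in region 1 and 0.0043 apart in region 6.

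The other 4 lower calls had smaller differences or overlapping groups. The probe for chr3:146515333-146557069 (forward), detected on every array, read -1.98, -1.48, -1.81 and -1.70 on HZ and -2.45, -2.38, -2.33 and -2.25 on KO arrays, a difference of -0.61 (SE 0.12, adjusted p = 0.328). On chromosome 18, chr18:38776580-38841080 (reverse) ran from -3.98 to -3.56 on HZ and from -4.46 to -4.06 on KO arrays (difference -0.59, SE 0.13, adjusted p = 0.362). Its forward probe was not tested, whereas the overlapping chr18:38761187-38805576 on the forward strand, detected on every array, differed by 0.011. At chr11:87841800-87858725 (forward) the labels nearly met, with HZ replicate 2 at -4.8601 and KO replicate 4 at -4.8603. The difference there was -0.59 (adjusted p = 0.496), the value nearest to the threshold. The nearest member beyond it, among those past 1.5-fold, had an adjusted p of 0.511.

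At chr2:102082091-102082751 (reverse), 3 probes target 661 bases. They differed by -1.13, -0.62 and -0.13, and the first was called although its groups overlapped. Their standard errors were 0.32, 0.32 and 0.26, and whether the 3 differences differ from each other was not tested.

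Detection by label was also counted, from the same signals as the differences above. Of the 4450 members, 8 were well above background on all 4 HZ arrays and on 0 KO arrays (0.18%, against 0.0707% of all 56605 probes), and 0 showed the reverse (0% against 0.0124%). Regions 1, 2 and 7 are among the 8. For region 2, the mark on HZ replicate 4 came from the spot left out of the signals as an outlier. The other 5 were chr5:121765763-121768660, chr17:79959134-79972206, chr15:90074814-90087814 and chr16:11032048-11036671 on the forward strand and chr19:29546348-29596479 on the reverse strand. With the reported normalization, the bounds of these 5 ran from at least 1.29-fold to at least 1.70-fold lower on the arrays labelled KO. With normexp background correction, their fitted differences were -0.27 to -0.054, each a smaller change than its bound. None of the 5 was called (limma adjusted p of 0.530 to 0.734), and all 5 passed the filter on dim probes only through the HZ arrays. A dim probe can cross the detection mark with a small change: at chr19:29546348-29596479 the arrays read -5.58, -5.61, -5.20 and -4.17 on HZ and -5.78, -5.36, -5.97 and -5.23 on KO, and the groups overlapped.

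Higher signal on the KO arrays was called at 3 members. The only one with separate groups was chr2:31714946-31716972 (2027 bases, forward). It measured 1.97, 1.89, 1.63 and 1.39 on HZ and 2.62, 2.21, 2.34 and 2.30 on KO arrays, a difference of 0.65 (SE 0.15, adjusted p = 0.382). It was detected on all 8 arrays and was the only called member above the 75th percentile of an array. At chr13:66104025-66114075 (reverse) the signal was -6.14, -4.97, -5.81 and -5.63 on HZ, where 1 array was well above background, and -4.39, -4.72, -5.28 and -4.61 on KO, where all 4 were. The difference was 0.89 (SE 0.28, adjusted p = 0.492) and the groups overlapped at HZ replicate 2. The KO arrays alone met the filter on dim probes here, so a higher KO signal was in part built into the selection.

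The third was 1 of 3 tested reverse probes of chr11:112898724-113062945, a region of 164222 bases. The 3 probes differed by 0.37, 0.51 and 0.67, all higher on KO arrays (SE 0.15 to 0.23, lowest adjusted p = 0.479). For the probe at 0.51, just under 1.5-fold, the groups were separate: it read -1.73, -2.08, -2.15 and -2.44 on HZ and -1.69, -1.66, -1.60 and -1.42 on KO. The forward probe was detected on 3 arrays and was not tested. Probes of a region may target different exons or none of the same transcript, so they are no replicates. Here the 3 had the same sign.

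Elsewhere, probes of the same region often differed in sign. Of 130 regions with 2 or more tested probes on the same strand, 81 had differences of 1 sign, and the median range between the probes of a region was 0.15. In 12 regions the probes lay more than 1.5-fold apart. No region had more than 3 tested probes. More than 5 regions had 3, and the 5 taken from them were the first in order of name. All differences were positive in 4 of these 5, which do not stand for the other tied regions. The largest of these after chr11:112898724-113062945 were at chr17:26911032-26912366 (forward), at 0.24, 0.27 and 0.39, with adjusted p of 0.328 for the last. At chr12:45415565-45423519 (forward) the probes differed by -0.075, -0.075 and 0.54.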

How the data were processed

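RNA from isolated photoreceptor cells was hybridised to 8 single-color SurePrint G3 mouse arrays, grouped by their labels. The authors quantified the spots with Agilent Feature Extraction 10.7.1.1 (version from the submitters' processing notes) and deposited background-subtracted signal intensities per spot, with software marks for outliers and detection. A table of log2 values, shifted by the 75 percentile in GeneSpring by the authors and centred per probe as the values show, served as an alternative. The number of arrays limits the precision.

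Members were probes whose systematic name starts with chr. For each array, the log2 intensity was reduced by the 75th percentile over 59305 noncontrol spots, spots marked as outliers were dropped, and repeated spots were averaged per probe. Detection marks were counted with the outlier spots included. Probes detected (well above background) on 4 or more arrays, with 3 or more values per group, were compared two-sided in limma 3.58.1 (lmFit and eBayes), run in R 4.3.3 with the packages data.table, version 1.17.8, and, for plots, matplotlib 3.10.9, with Benjamini-Hochberg adjustment over all 34303 tested probes. The procedure was tested on simulated data. The thresholds come from the study's methods, which do not say which pair was applied to these cells. Bounds set a KO value below the lowest detected signal of its array at that signal.

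The members, marker lists (RPE, rod, cone, microglia, Muller glia, bipolar, amacrine with horizontal and ganglion, vascular, red blood cell) and named rule were chosen with earlier results of these data known. Named were members past the stricter thresholds, the 10 largest looser calls without overlap, the 10 brightest, those detected on all arrays of a label and none of the other, up to 5 strand pairs and up to 5 regions with most probes. Ties among the regions with most probes were cut by order of name. The other looser calls, and probes overlapping named ones, were added after their values were seen. Marker genes were named through RefSeq accessions of GRCm38.p6, used for names only (32994 of 56605 probes matched). Median differences of the lists not given in the report were -0.092 for rod (15 of 20 lower), 0.24 for cone (9 of 10 higher), -0.27 for Muller glia (7 of 9 lower), -0.25 for bipolar (6 of 8 lower), 0.18 for amacrine, horizontal and ganglion (4 of 5 higher) and 0.23 for vascular markers (2 of 4 higher).

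The replicate number, which is also the slide column, was checked as a pairing. Over all tested probes, each array's deviation from its group mean gave r of 0.17 to 0.34 for arrays of the same number (over 0.1 in 4 of 4 pairs) and -0.34 to 0.12 for different numbers. Over the members alone, the same-number values were -0.020 to 0.30. The numbers may therefore pair the arrays, and what they mark is not given in the sources used here. The reported fit used genotype alone, as the study's methods name unpaired tests. Its standard errors and p-values thus leave this pairing out, and the fit with the block was an alternative. Pearson's r between arrays over the tested members was 0.945 to 0.980, and 0 pairs held identical values. Alternatives were other normalizations, background correction and filters, trend and robust eBayes, the methods' t-test, the block, region averages, the authors' values, each array left out and, chosen after seeing the data, the mean level of 4 Y-linked genes as a covariate. A gene that the named rule takes in is not reported here.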

Additional observations from a re-analysis of the deposited data

Results flagged for a closer look

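Of 54 groups of 4 arrays that were checked for a single distant value (levels and shares of the members named in the report), 4 had one, where chance gives about 1 in 20 groups, or 2.7 here. KO replicate 4 read -7.85 at chr9:78107225-78118850, forward, against -5.90 to -5.84 on the other KO arrays, all of them below the detection mark. KO replicate 2 read -5.72 at chr9:41488229-41545481, reverse, against -6.67 to -6.62 on the other KO arrays. HZ replicate 4 read 7.60 at chr14:78924115-78938125, forward, against 6.27 to 6.48 on the other HZ arrays. KO replicate 2 read 5.15 at chr19:5798135-5800557, reverse, against 5.38 to 5.41 on the other KO arrays, and HZ replicate 2 read 5.02 there.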

How the results depend on the processing

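The number of members past 1.5-fold with an adjusted p of 0.5 was 17 as reported. It was 6 after quantile normalization and 6 with normexp background correction, 9 for probes well above background on all 8 arrays, 0 with no filter on dim probes, 73 in the paired fit with the replicate block, and 78 with the mean Y-linked level as a covariate, which was chosen after seeing the data. Leaving out 1 array at a time gave 0 to 139. It was 14 to 20 under the other 5 alternatives. All 17 members kept their direction wherever they were tested, and the same 17 were called with the replicate block and with the covariate, against 5 after quantile normalization and 2 with normexp. With the covariate, 72 were lower (3.09%, against 2.36% of all tested probes) and 6 higher (0.258% against 0.624%). The stricter thresholds gave 0 members in every setting, the replicate block included. The median difference over tested members ran from -0.14 without HZ replicate 2 to 0.013 without HZ replicate 4, with 0.00081 after quantile normalization and -0.11 with the covariate, each within the spread between arrays of the reported value. The change in the share detected, -1.88 percentage points (KO minus HZ), was -2.88 to -0.55 without single arrays. The cause of these changes was not tested. Of the 25 members named by the rule, those with a call kept their sign, and 8 changes of sign fell on bright members with small differences. Signals near the detection mark, where most of the calls lie, limit what these arrays resolve.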

Other observations

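A few members followed the Xist and Y-linked signals across the arrays. These members were chosen after their values were seen, and no test was made. At chrX:102222494-102267068, reverse, detected on all 8 arrays, the signal was -1.77, -2.14, -1.67, -2.07 and -2.04 on the 5 arrays with high Xist (HZ replicates 1, 2 and 3 and KO replicates 2 and 3), and -2.44, -2.88 and -3.02 on HZ replicate 4 and KO replicates 1 and 4. At chrX:12811766-12813409, reverse, it was -4.30 to -3.68 on those 5 arrays and -5.38, -4.63 and -4.53 on the other 3. The order was not limited to names on chromosome X. At chr15:62090565-62091770, forward, the signal was -4.61 to -3.91 on those 5 arrays and -5.82, -4.81 and -4.90 on the other 3.

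The opposite order was seen at chr16:3111550-3130500, reverse, which was well above background on 2 HZ and 2 KO arrays. It read -3.61 on HZ replicate 4, -3.70 on KO replicate 1 and -3.33 on KO replicate 4, the arrays with high Y-linked genes, -4.79 on HZ replicate 3, and -7.95 to -6.11 on the other 4. At chr5:15146475-15170100, forward, the values were -4.73, -3.37 and -3.30 on the same 3 arrays, -5.76 on HZ replicate 3 and -7.93 to -7.41 on the other 4. This probe was well above background on 0 HZ and 2 KO arrays, so its value on HZ replicate 4 was not a detected signal. HZ replicate 3 also had the highest Ddx3y signal, -5.68, among the 5 arrays with high Xist, where the other 4 read -8.06 to -6.70. The other Y-linked genes did not follow this order. Among those 5 arrays, HZ replicate 3 was lowest for Eif2s3y (-7.825) and Uty (-7.84), and its Kdm5d signal was -8.01. A region named on chromosome X, chrX:120324027-120326909, reverse, was also highest on the arrays with high Y-linked genes. It read -5.09 on HZ replicate 4, -5.53 on KO replicate 1 and -5.22 on KO replicate 4, and -8.18 to -6.46 on the others. Its probe was well above background on 0 HZ and 2 KO arrays.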
